A study of Saccharomyces cerevisiae with 6 samples.

Results

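Transcripts of the proteasome, the protease that breaks down ubiquitin-marked proteins, were compared between 3 groups of arrested budding yeast. The set is 38 genes, taken by name from the 6400 named genes of a table of transcript abundance. It holds 14 genes of the core particle (SCL1, PRE1 to PRE10 and PUP1 to PUP3), 19 of the regulatory particle (RPT1 to RPT6, RPN1 to RPN3, RPN5 to RPN13 and SEM1) and 5 others. The others are the assembly chaperones UMP1 and RPN14, the activator BLM10, the adaptor ECM29 and the transcription factor RPN4. By name alone the RPN and RPT genes number 20, since RPN4 and RPN14 carry the name without being subunits and SEM1 is a subunit without it. All 38 were in the table, and all 38 were among the 6046 genes tested, whose means reached at least 1 TPM (an abundance per length of gene, scaled to the same total in each library).

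Poly(A) RNA was sequenced from 6 libraries of Saccharomyces cerevisiae W303, a laboratory strain, with replicates A and B for each of 3 groups named T1, T2 and T3. Each title carries the word arrest, so T1, against which the others are set, is arrested too. The series' design text speaks of populations that differ in mean size, but neither it nor the labels give the size, time, genotype or way of arrest of any group. The labels also do not say that replicates came from separate cultures, so p-values may measure technical spread alone. The label names a strain and not a cell type, and no transcripts that define the strain were tested. Each library held 17872645 to 23534512 fragments on matched genes, as recovered from the values, and no proteasome gene held fewer than 1102 in any library.

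The core particle is a barrel of alpha and beta rings, with the cutting sites inside it on beta subunits. The regulatory particle caps the barrel: its base, with a ring of ATPases, unfolds substrates, and its lid removes their ubiquitin. In yeast the transcription factor Rpn4 binds a promoter element named PACE (proteasome-associated control element) that many subunit genes share, and Rpn4 is itself broken down by the proteasome.

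The 9 letters GGTGGCAAA of PACE were searched on both strands of each promoter, from 250 bases before the start codon to 50 after it, in the RefSeq genome R64. Of the 38 proteasome promoters 28 held it, 20 of them on the gene's own strand and 8 on the opposite strand, where it reads TTTGCCACC. In all 6001 protein-coding promoters of that length 72 held it, or 1.20%, and 0.738% of the promoters outside the set did. The first base of the motif lay 84 to 183 bases before the start codon, with a median of 122 bases. With 1 mismatch allowed, 34 proteasome promoters and 7.57% of all promoters matched. The exact letters were found in 12 of 14 core promoters (not in PRE5 and PUP1) and in 15 of 19 regulatory promoters (not in RPN8, RPN10, RPN13 and SEM1). Outside the particles only ECM29 of the 5 genes held them. The sites below are shown for genes that rose most in T3 against T1 in each particle and for genes that were not called, each with its surroundings from 5′ to 3′ on the gene's strand and the motif in capitals.
PRE9 (chrVII:761217-761257, plus strand): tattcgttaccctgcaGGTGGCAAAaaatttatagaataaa
SCL1 (chrVII:475331-475371, minus strand): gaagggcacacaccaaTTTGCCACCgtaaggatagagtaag
PRE1 (chrV:177677-177717, plus strand): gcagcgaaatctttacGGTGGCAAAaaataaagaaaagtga
PRE10 (chrXV:1018850-1018890, minus strand): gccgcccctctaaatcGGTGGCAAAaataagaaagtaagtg
RPT3 (chrIV:1261489-1261529, plus strand): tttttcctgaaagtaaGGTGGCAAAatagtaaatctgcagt
RPT2 (chrIV:437900-437940, plus strand): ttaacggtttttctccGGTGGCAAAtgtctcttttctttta
RPN12 (chrVI:252392-252432, plus strand): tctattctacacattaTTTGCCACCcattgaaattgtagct
RPN9 (chrIV:1322080-1322120, plus strand): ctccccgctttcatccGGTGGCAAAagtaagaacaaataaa
PUP2 (chrVII:999220-999260, minus strand): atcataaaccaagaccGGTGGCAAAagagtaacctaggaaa
RPN6 (chrIV:286784-286824, minus strand): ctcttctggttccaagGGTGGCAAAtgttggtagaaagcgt
RPN11 (chrVI:153253-153293, plus strand): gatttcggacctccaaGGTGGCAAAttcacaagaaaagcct
ECM29 (chrVIII:39937-39977, plus strand): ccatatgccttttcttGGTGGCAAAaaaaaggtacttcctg
The first 8 belong to genes that rose in T3 and the last 4 to genes that were not called. Only promoters that hold the 9 letters could be shown, so their presence in both sets was given in advance. A match of letters is a description and does not show that the factor was bound.

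**Figure D1:**
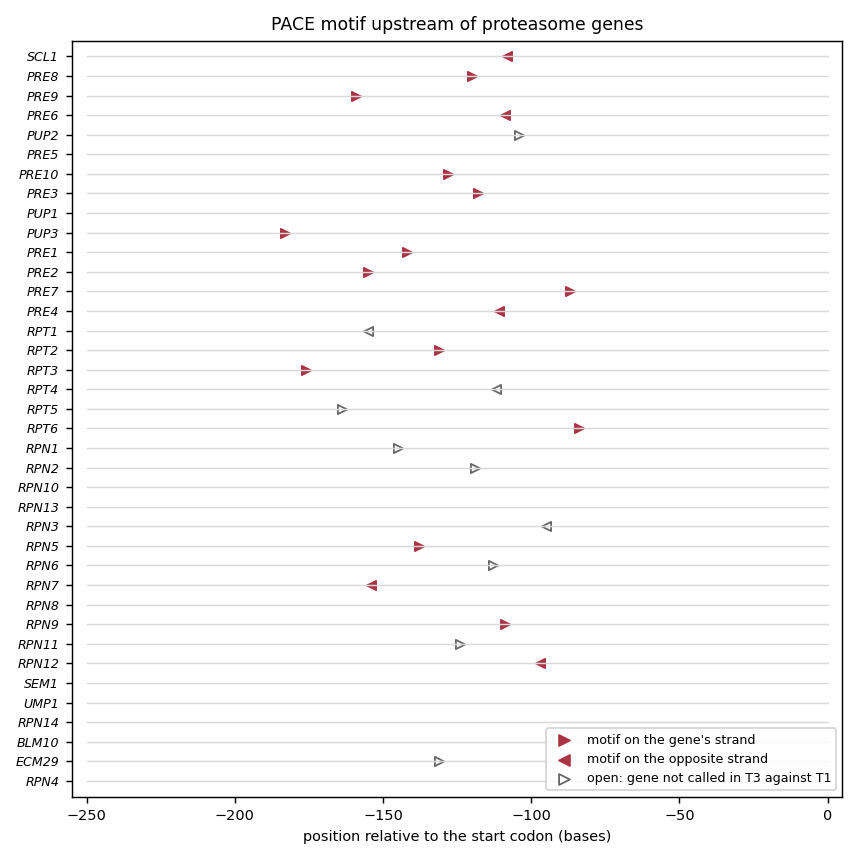
Position of the PACE motif before the start codon (horizontal axis, bases) in each of the 38 promoters; arrowheads point along the strand that carries it and are filled for genes that rose in T3 against T1. The 28 motifs lie 84 to 183 bases before the start codon, and filled and open arrowheads are interspersed.

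Proteasome transcripts were abundant in every group. The median over all libraries was 292.5 TPM for core genes and 186.5 TPM for regulatory genes, against 34.4 TPM for all tested genes. The 14 core genes lay within a 2.08-fold range of mean TPM, with PUP3 highest and PUP1 lowest. The 19 regulatory genes spanned 4.18-fold, with SEM1 highest and RPN9 lowest, and the 17 other than SEM1 and RPN13 lay within 2.15-fold. SEM1 and RPN13 are also the shortest genes of the particle, at 270 and 471 nt. Of the genes outside the particles, RPN14, BLM10 and ECM29 were lower, at 17.9 to 40.7 TPM in every library. RPN4 (mean 125.8 TPM) lay below all particle genes but RPN9, and UMP1 (mean 284.4 TPM) lay within the range of the core genes. Summed over the 38 genes, the set held 0.732% and 0.783% of all TPM in T1, then 0.857% and 0.908% in T2, then 0.945% and 0.915% in T3. Both T3 sums lay above both T1 sums and above both T2 sums.

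**Figure D2:**
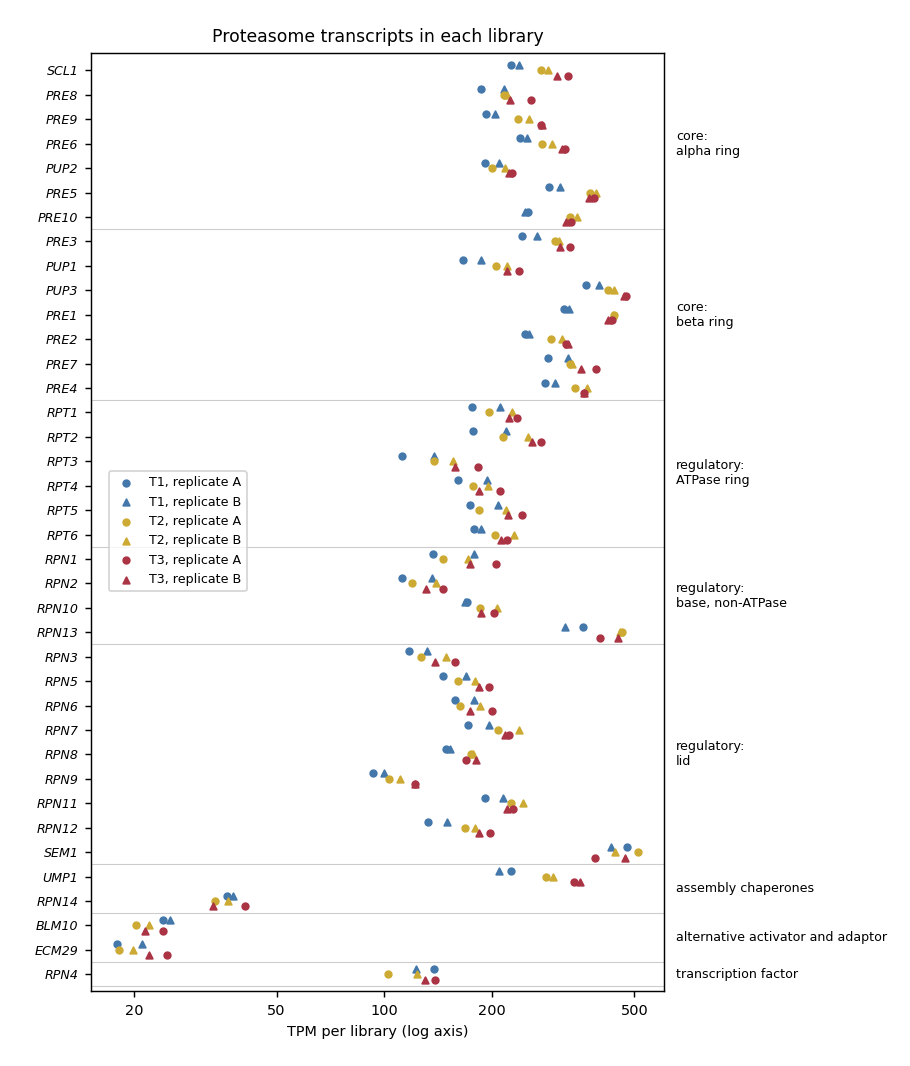
Abundance of the 38 transcripts (rows) in each of the 6 libraries, in TPM on a log axis, with groups by colour and replicates by symbol. Both T3 libraries lie right of both T1 libraries for all 14 core genes, while the 8 genes whose T3 and T1 libraries overlap are RPT4, RPN1, RPN2, RPN6, SEM1, RPN14, BLM10 and RPN4.

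The first question was how proteasome transcripts of T3 stood to those of T1. In T3, 22 of the 38 genes rose and 0 fell, with a median log2 change of 0.28 (1.21-fold) over all 38. Among all 6046 tested genes 31.0% rose and 16.9% fell, with a median log2 change of 0.09. Core genes rose most uniformly: 13 of 14 rose (median log2 change 0.35), against 8 of 19 regulatory genes (median 0.25). The remaining rise was that of UMP1. A gene that was not called may still have changed: 18 of the 19 regulatory changes were above 0, beside 3554 of all 6046. Calls also depend on the SE, since PRE8 was called at a log2 change of 0.26 (SE 0.10) and RPT5 was not at 0.28 (SE 0.11). Without T1 replicate A the count was 11 of 38, a share near the 26.2% of all tested genes that rose in that setting, and without T3 replicate A it was 14, beside 23.0%. Regulatory rises numbered 2 without T1 replicate A and 4 without T3 replicate A. Both T3 libraries exceeded both T1 libraries for 30 of the 38 genes, while 45.7% of all tested genes did so. TPM is a share of the RNA in a library, so more RNA of a gene and less RNA of others cannot be told apart, and in bulk samples a change in the number of cells that express a gene cannot be told apart from a change in RNA per cell.

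The size of the rise depended on how libraries were scaled. Without the cytosolic ribosomal protein genes in the total, which shifted the median of all genes by -0.153 on the log2 scale, 12 members rose and 1 fell, beside 22.1% of all genes that rose. After quantile normalization (shift -0.126) 7 rose and 1 fell, or 7 of 38 beside 23.5% of all genes, and with median-of-ratios size factors 16 rose and 1 fell, beside 26.3%. The single fall was that of BLM10 each time. The calls of SCL1, PRE9, PRE1, RPN12 and UMP1 held in each of the 18 alternatives.

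In the alpha ring 6 of 7 genes rose. PRE9, whose product is the only core subunit that yeast can live without (YGR135W, chromosome VII, 761392 to 762168, plus strand), had 192 and 204 TPM in T1, then 236 and 254 TPM in T2, then 275 and 277 TPM in T3. Each group lay above the one before it without overlap, and T3 was 1.39-fold T1 (log2 change 0.48, SE 0.09, limma adjusted p = 0.000595). SCL1, which encodes another alpha subunit (YGL011C, chromosome VII, 474489 to 475247, minus strand), had 226 and 237 TPM in T1, then 274 and 286 TPM in T2, then 327 and 304 TPM in T3. It rose 1.36-fold in T3 against T1 (log2 change 0.44, SE 0.09, limma adjusted p = 0.000961), and its groups too did not overlap. PRE10, another alpha subunit gene, had 252 and 247 TPM in T1, then 331 and 345 TPM in T2, then 333 and 322 TPM in T3. Here the T2 and T3 libraries overlapped, and T3 was 1.31-fold T1 (log2 change 0.39, SE 0.08, limma adjusted p = 0.00172); the call was lost after quantile normalization (adjusted p = 0.0633, range over the alternatives 0.000603 to 0.0633). PRE6 and PRE5 had log2 changes of 0.37 and 0.34.

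PRE8 and PUP2 had the smallest changes of the alpha ring. PRE8 had 186 and 216 TPM in T1, then 216 and 221 TPM in T2, then 258 and 224 TPM in T3 (log2 change 0.26, SE 0.10, limma adjusted p = 0.0471). Its call was lost in 12 of the 18 alternatives (adjusted p 0.0125 to 0.572), among them those without T1 replicate A, T3 replicate A or either T2 library. PUP2 had 192 and 209.7 TPM in T1, then 199.9 and 217 TPM in T2, then 228 and 222 TPM in T3, with T3 above T1 in both libraries but by less than the test could call (log2 change 0.17, SE 0.09, limma adjusted p = 0.153). After quantile normalization its log2 change was -0.025, the only negative value of a core gene in any alternative.

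In the beta ring all 7 genes rose. The genes of the cutting subunits were PRE3 (caspase-like site), PUP1 (trypsin-like site) and PRE2 (chymotrypsin-like site), with log2 changes of 0.33, 0.38 and 0.37 in T3 against T1. PUP1, the least abundant core gene (YOR157C, chromosome XV, 630966 to 631751, minus strand), had 166 and 186 TPM in T1, then 205 and 219.7 TPM in T2, then 238 and 220.3 TPM in T3 and rose 1.30-fold (log2 change 0.38, SE 0.10, limma adjusted p = 0.00481); after quantile normalization the adjusted p = 0.0536, in a range of 0.00125 to 0.0536. PRE1, a beta subunit gene without a cutting site of its own (YER012W, chromosome V, 177835 to 178431, plus strand), had 319 and 328 TPM in T1, then 439 and 435 TPM in T2, then 434 and 422 TPM in T3. Its T2 and T3 libraries stood together above both T1 libraries (log2 change 0.40, SE 0.08, limma adjusted p = 0.00109). PUP3, the most abundant core gene and likewise without a cutting site, had 366 and 399 TPM in T1, then 421 and 440.0 TPM in T2, then 474 and 467 TPM in T3 (log2 change 0.30, SE 0.08, limma adjusted p = 0.0102). PRE7 had 287 and 325 TPM in T1, then 331 and 334 TPM in T2, then 390.0 and 356 TPM in T3, the smallest change of this ring (log2 change 0.28, SE 0.09, limma adjusted p = 0.0211), and its call was lost in 8 of the 18 alternatives (adjusted p 0.00748 to 0.608), as were those of PUP3 and PRE3 in 4 and of PRE4 in 3. Leaving out T1 replicate A was among them for all 4 genes, and leaving out T3 replicate A for all but PRE4. PRE4 had a log2 change of 0.32.

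In the regulatory particle 3 of 6 ATPase genes, 1 of 4 other base genes and 4 of 9 lid genes rose. RPT3, an ATPase whose tail docks on the alpha ring (YDR394W, chromosome IV, 1261681 to 1262967, plus strand), had 112 and 138 TPM in T1, then 138 and 156 TPM in T2, then 183 and 158 TPM in T3 and rose 1.36-fold in T3 against T1 (log2 change 0.45, SE 0.12, limma adjusted p = 0.00673). RPT2, whose product opens the gate of the core particle, had 177 and 219 TPM in T1, then 215 and 253 TPM in T2, then 274 and 258 TPM in T3 (log2 change 0.43, SE 0.11, limma adjusted p = 0.00647). In both genes replicate A was the lower T1 library and the higher T3 library; without T1 replicate A both calls were lost, and without T3 replicate A that of RPT3 (adjusted p over all alternatives 3.56e-05 to 0.0668 for RPT3, 2.63e-05 to 0.118 for RPT2). RPT6 rose with a log2 change of 0.24, a call lost in 10 of 18 alternatives, among them those that left out a single T1 or T3 library, whichever it was. RPT1, RPT4 and RPT5 were not called, at 0.25, 0.16 and 0.28.

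The base subunits outside the ATPase ring include the ubiquitin receptors Rpn1, Rpn10 and Rpn13. RPN13 (YLR421C, chromosome XII, 965090 to 965560, minus strand) had 359 and 320.5 TPM in T1, then 460.5 and 457 TPM in T2, then 402 and 451 TPM in T3. Its T2 libraries were the highest, and T3 lay above T1 (log2 change 0.33, SE 0.09, limma adjusted p = 0.00963), with the call lost under each of the 3 other scalings, without T1 replicate B and without T3 replicate B (adjusted p 0.00255 to 0.442). RPN10, RPN1 and the scaffold gene RPN2 had log2 changes of 0.20, 0.27 and 0.16 and were not called.

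Among lid genes RPN12, whose product joins the lid last (YFR052W, chromosome VI, 252505 to 253329, plus strand), had 133 and 149.8 TPM in T1, then 168 and 179 TPM in T2, then 198 and 184 TPM in T3. The groups T3 and T1 did not overlap, and the gene rose 1.35-fold (log2 change 0.43, SE 0.10, limma adjusted p = 0.00233). RPN9, the least abundant gene of the particle, had 92.8 and 99.9 TPM in T1, then 103 and 111 TPM in T2, then 122 and 122 TPM in T3 (log2 change 0.34, SE 0.09, limma adjusted p = 0.00925); leaving out T1 replicate A, or ribosomal protein genes from the total, ended the call (adjusted p 0.0057 to 0.0714). RPN5 and RPN7 rose with log2 changes of 0.27 and 0.27, each lost in 8 of 18 alternatives, T1 replicate A and each T3 library left out being 3 of them. RPN3 and RPN8 were not called, at 0.24 and 0.21. RPN11, the gene of the lid's deubiquitinating enzyme, had 191 and 215 TPM in T1, then 226 and 244 TPM in T2, then 229 and 219.8 TPM in T3 (log2 change 0.15, SE 0.09, limma adjusted p = 0.213) and was not called. RPN6, whose product clamps the lid to the core particle, had 158 and 178 TPM in T1, then 163 and 185 TPM in T2, then 199.9 and 173 TPM in T3, with overlapping T3 and T1 libraries (log2 change 0.15, SE 0.11, limma adjusted p = 0.263). SEM1, a small acidic lid subunit and the most abundant gene of the particle, had 477 and 430.5 TPM in T1, then 513 and 441 TPM in T2, then 388 and 472 TPM in T3, with wide gaps between replicates (log2 change -0.08, SE 0.11, limma adjusted p = 0.557). It was the only particle gene with a negative change in T3 against T1, and without T3 replicate A its change too was above 0. After quantile normalization PUP2, RPT4, RPN6 and RPN11 were also below 0, none of them called.

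**Figure D3:**
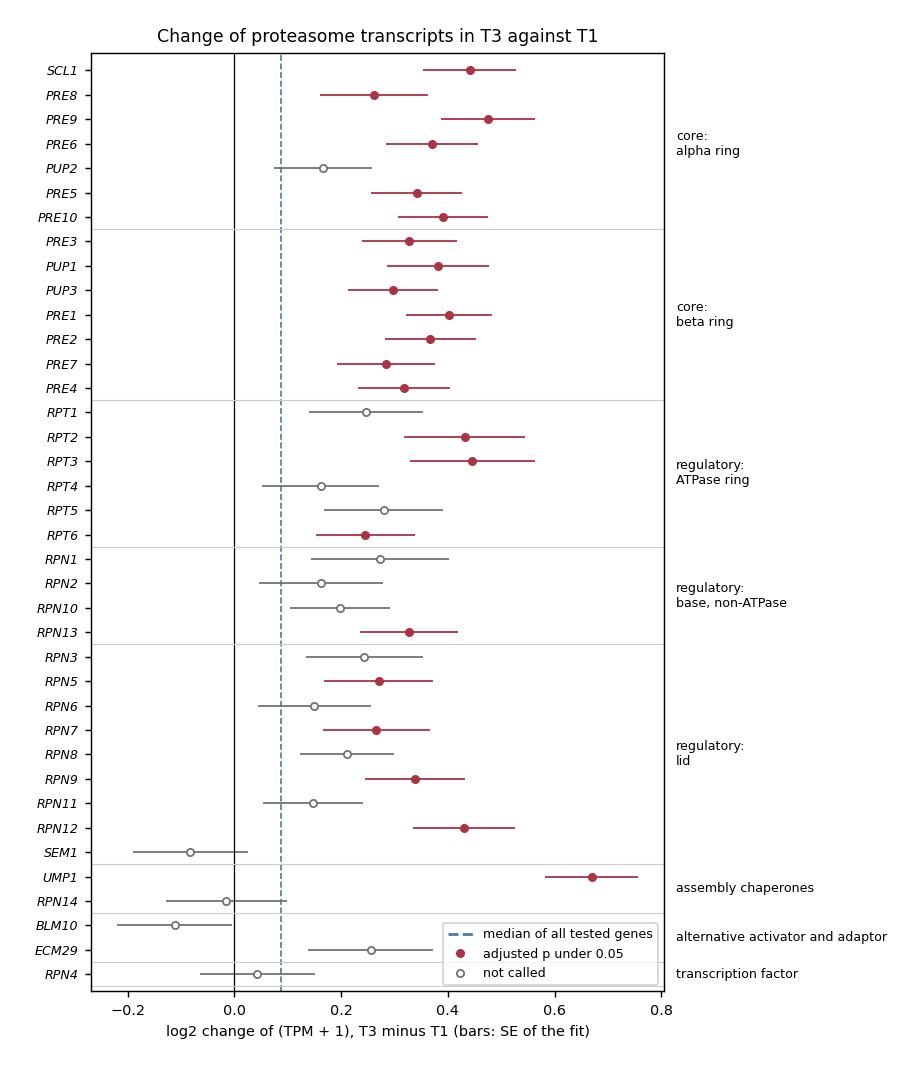
Log2 change of (TPM + 1) in T3 minus T1 for the 38 genes (rows, by subgroup), with bars of 1 SE from the fit, filled where the adjusted p was under 0.05 and with the median of all tested genes (0.09) dashed. UMP1 lies farthest right at 0.67, the core genes lie at 0.17 to 0.48, and BLM10, SEM1 and RPN14 lie left of 0.

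UMP1 had the largest change of the set. It encodes the chaperone that guides maturation of the core particle and is destroyed when that is complete (YBR173C, chromosome II, 581726 to 582172, minus strand). It had 226 and 209 TPM in T1, then 283 and 296 TPM in T2, then 340.1 and 352 TPM in T3, without overlap between any groups, and rose 1.59-fold in T3 against T1 (log2 change 0.67, SE 0.09, limma adjusted p = 2.96e-05). Its promoter window held no PACE letters, with 1 mismatch allowed or not. RPN14, a chaperone of the base, had 36.4 and 37.9 TPM in T1, then 33.6 and 36.7 TPM in T2, then 40.7 and 33.2 TPM in T3. Its groups overlapped and it was not called (log2 change -0.02, SE 0.11, limma adjusted p = 0.921).

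RPN4, the gene of the transcription factor that acts on PACE (YDL020C, chromosome IV, 415113 to 416708, minus strand), had 138 and 123 TPM in T1, then 102 and 123 TPM in T2, then 138 and 130.1 TPM in T3. The T3 libraries lay in the same range as the T1 libraries (log2 change 0.04, SE 0.11, limma adjusted p = 0.767; not called in any alternative, adjusted p 0.351 to 0.993). The log2 change of RPN4 in T2 against T1 was -0.21 (limma adjusted p = 0.198). BLM10, which encodes an activator that caps the core particle without ATP, had 24.1 and 25.2 TPM in T1, then 20.2 and 22 TPM in T2, then 24.1 and 21.4 TPM in T3 (log2 change -0.11, SE 0.11, limma adjusted p = 0.417). It was called as lower in T3 under each of the other scalings and after removal of the length trend, with log2 changes of -0.204 to -0.269. ECM29, which encodes an adaptor between the particles, had 17.9 and 21 TPM in T1, then 18.1 and 19.9 TPM in T2, then 24.7 and 22.1 TPM in T3; both T3 libraries lay above both T1 libraries, and the gene was not called (log2 change 0.26, SE 0.12, limma adjusted p = 0.0861).

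Core and regulatory genes were set side by side over the 3 groups. The ratio of mean core TPM to mean regulatory TPM was 1.40 and 1.38 in T1, then 1.49 and 1.45 in T2, then 1.51 and 1.49 in T3. All T3 and T2 libraries thus lay above both T1 libraries, with no test, since a score over the set was not tested. The regulatory mean includes SEM1, the most abundant gene of the particle, whose replicates lay far apart. With SEM1 left out, T2 replicate B no longer lay above T1 replicate A, while both T3 libraries still lay above both T1 libraries. Taken per gene, the core median lay at 0.37 and 0.32 in the T3 libraries and at 0.23 and 0.31 in T2, as log2 differences from each gene's T1 mean. The regulatory median lay at 0.28 and 0.21 in T3 and at 0.13 and 0.24 in T2. The core median change in T3 against T1 exceeded the regulatory one in each alternative that altered the medians. Changes of the filter or variance model, the replicate block, a left-out T2 library and the fit of only the 2 groups compared left them at 0.354 and 0.247. Those settings do not bear on the comparison.

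Gene length differed between the particles, and the libraries differed by length. Core genes were 597 to 867 nt long, and 14 of 19 regulatory genes were over 1000 nt. In T1, genes over 1000 nt were lower in replicate A than in replicate B (median log2 difference -0.11 over 3482 genes, 0.00 over the 2358 shorter genes), and the 14 long regulatory genes were all lower there (median -0.24). In T2 all 14 were again lower in replicate A (median -0.19), and in T3 12 of 14 were higher in replicate A (median 0.11). The 5 regulatory genes of at most 1000 nt, SEM1 among them, had a median log2 change of 0.20 in T3 against T1, and 2 of them rose. The 14 longer regulatory genes had a median of 0.26, and 6 of them rose. Among all tested genes, 821 of the 2358 of at most 1000 nt rose (median 0.12), and 1007 of the 3482 longer ones (median 0.07). With a smooth trend on length removed from each library, 11 of 14 core genes and 8 of 19 regulatory genes rose, with median log2 changes of 0.22 and 0.16. Of all genes tested in that setting 29.3% rose, with a median log2 change of -0.009. Without T1 replicate A, 8 core genes rose. The part of length in the difference between the particles was not tested further.

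**Figure D4:**
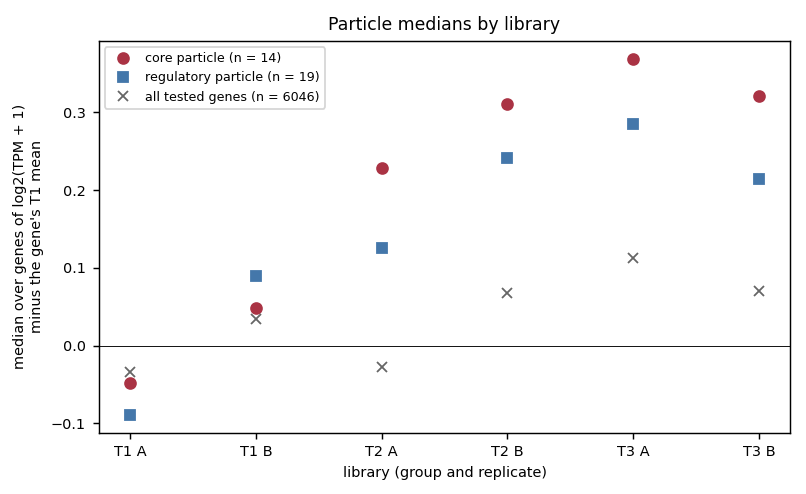
Median over the 14 core, 19 regulatory and 6046 tested genes of log2(TPM + 1) minus each gene's T1 mean, for each library (horizontal axis). In T2 and T3 the core median (0.23 to 0.37) lies above the regulatory median (0.13 to 0.28) in every library, and both lie above the median of all genes (-0.03 to 0.11).

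The change was then divided into its steps, which share libraries with each other and with the comparison of T3 and T1. In T2 against T1, 10 of 38 genes rose and 0 fell, beside 11.9% and 6.10% of all tested genes, with a median log2 change of 0.21. They were 7 core genes (PRE1, PRE2, PRE4, PRE5, PRE9, PRE10 and SCL1), RPN12, RPN13 and UMP1. PRE10 had the largest log2 change of this step, 0.44 (SE 0.08, limma adjusted p = 0.00286), followed by RPN13 at 0.43, PRE1 at 0.43 and UMP1 at 0.41. None of the 14 regulatory genes over 1000 nt was called, beside 258 rises and 234 falls among the 3482 tested genes of that length. The count was 4 of 38 without T1 replicate A, a share near the 10.7% of all tested genes that rose in that setting. It was 4 without T2 replicate B, beside 6.75% of all genes, and 5 without T2 replicate A, beside 8.22%.

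In T3 against T2, UMP1 rose (log2 change 0.26, SE 0.09, limma adjusted p = 0.0486) and no other member was called, beside 15.8% of all tested genes that rose and 6.09% that fell. At an unadjusted p under 0.05 the members numbered 3, or 7.89%, beside 34.9% of all tested genes. The UMP1 call was lost under each of the 3 other scalings, with no filter, with no abundance trend, under the replicate block, and without T2 replicate A or either T3 library. The median log2 change of this step was 0.11 for core genes and 0.10 for regulatory genes, beside 0.07 for all tested genes.

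The difference between the steps was tested in the same fit. By limma 0 of 38 members passed at an adjusted p under 0.05, beside 1.08% of all genes that passed. At an unadjusted p under 0.05 there were 5 members, or 13.2%, beside 12.9% of all tested genes. Group means stood in the order T1, T2, T3, lowest first, for 24 of 38 members (63.2%) and for 39.2% of all tested genes, were highest in T2 for 10 members (26.3%, beside 13.9% of all genes) and lowest in T2 for 4 (10.5%, beside 22.2%). Among core genes PRE1, PRE5 and PRE10 were highest in T2. Those lowest in T2 were RPN14, BLM10, ECM29 and RPN4, the members outside the particles other than UMP1.

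With earlier results of these data known, 9 lists were chosen to describe the rest of the ubiquitin pathway. They held 59 genes, all of them tested. In T3 against T1, 28 rose and 5 fell, with a median log2 change of 0.23, beside 31.0% and 16.9% of all tested genes and their median of 0.09. Under other scalings the split was 26 and 9 with median-of-ratios size factors (26.3% and 25.9% of all genes), 24 and 9 after quantile normalization (23.5% and 28.5%) and 18 and 12 without ribosomal protein genes (22.1% and 30.5%). Of these 33 calls 15 were lost in some alternative, 9 of them without T1 replicate A. Of 4 other chaperones of core assembly, PBA1 alone was called (64.1 and 58.9 TPM in T3, against 48.4 and 52.2 TPM in T1; log2 change 0.28, limma adjusted p = 0.0293), and that call was lost in 6 of 18 alternatives, including those without T1 replicate A or either T3 library. ADD66, its partner and the most abundant of this list, had a log2 change of 0.20 and was not called. Of 4 chaperones of the base, NAS2 (log2 change 0.36; lost in 3 of 18 alternatives, T1 replicate A and T3 replicate A left out among them) and TMA17 rose. TMA17, a stress-induced chaperone of the ATPase ring (YDL110C, chromosome IV, 264512 to 264964, minus strand), had 105 and 119 TPM in T1, then 189 and 202 TPM in T2, then 379 and 325 TPM in T3. The groups were far apart, and it rose 3.13-fold (log2 change 1.65, SE 0.10, limma adjusted p = 3.74e-08), the largest change in the 9 lists.

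All 4 listed factors that bind the proteasome rose, beside 31.0% of all tested genes, in a list chosen with earlier results known. SPG5, a regulator of the proteasome in stationary phase (YMR191W, chromosome XIII, 645656 to 646777, plus strand), had 55.1 and 55.9 TPM in T1, then 82.2 and 85.2 TPM in T2, then 129.7 and 127 TPM in T3 and rose 2.29-fold (log2 change 1.20, SE 0.09, limma adjusted p = 2.21e-07). UBP6, the deubiquitinating enzyme of the base and the most abundant of this list, had 82.3 and 99.5 TPM in T1, then 97 and 112 TPM in T2, then 143 and 131 TPM in T3 (log2 change 0.59, SE 0.11, limma adjusted p = 0.000693). HUL5, a ubiquitin ligase bound to the proteasome, and FUB1, which binds the core particle, had log2 changes of 0.71 and 0.38. The rises of SPG5, UBP6 and HUL5 held in each of the 18 alternatives, and that of FUB1 in 13, not without T1 replicate A or T3 replicate B.

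Of 10 ubiquitin-conjugating enzymes 8 rose and 0 fell, beside 31.0% and 16.9% of all tested genes. The rise of UBC6 held in 15 of the 18 alternatives, not without ribosomal protein genes in the total, T1 replicate A or T3 replicate A. Those of UBC7 and UBC11 held in 17, lost without ribosomal protein genes and without T3 replicate A, respectively. UBC4 and UBC5 encode similar enzymes of bulk turnover, so reads of the pair may be split between them. UBC4, the most abundant, had 755 and 772 TPM in T1, then 834 and 875 TPM in T2, then 858 and 816 TPM in T3 and was not called (log2 change 0.13, limma adjusted p = 0.174). UBC5 had 62.4 and 62.3 TPM in T1, then 108 and 109 TPM in T2, then 169 and 163 TPM in T3, with clear gaps between groups, and rose 2.63-fold (log2 change 1.40, SE 0.09, limma adjusted p = 5.02e-08). UBC8, whose product marks a gluconeogenic enzyme for destruction, changed by 1.03 on the log2 scale.

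Of 9 genes of Cdc48, its cofactors and substrate shuttles, 8 rose and 1 fell, beside 31.0% and 16.9% of all tested genes. The rise of DOA1 was lost in 7 of 18 alternatives and that of NPL4 in 5, both without T1 replicate A and without T3 replicate A. CDC48, the gene of the ATPase that extracts ubiquitin-marked proteins, had 448 and 389 TPM in T3, against 274 and 332 TPM in T1 (log2 change 0.47, SE 0.11, limma adjusted p = 0.00406; lost without a filter on low values and after quantile normalization, adjusted p 4.51e-06 to 0.0821). UFD2, a ligase that lengthens ubiquitin chains, had the largest rise, with a log2 change of 0.60. RAD23, a shuttle that also acts in DNA repair, had 137 and 157 TPM in T1, then 132 and 136 TPM in T2, then 112 and 98.9 TPM in T3. It fell (log2 change -0.47, SE 0.10, limma adjusted p = 0.00177), while the other shuttles DSK2 and DDI1 rose with log2 changes of 0.47 and 0.52; all 3 calls held in each of the 18 alternatives.

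Ubiquitin itself is encoded by UBI4, a chain of repeats, and by fusions to ribosomal proteins. UBI4 rose, with 425 and 406 TPM in T3, against 322 and 332 TPM in T1 (log2 change 0.35, limma adjusted p = 0.00462; 0.174 after quantile normalization, in a range of 0.00199 to 0.174). Of the fusions, RPS31, the most abundant at 6983 and 7374 TPM in T3, against 9197 and 8127 TPM in T1, fell (log2 change -0.27, limma adjusted p = 0.00731; lost in 3 of 18 alternatives). RPL40B had 2165 and 1857 TPM in T1, then 1603 and 1542 TPM in T2, then 988 and 958 TPM in T3 and a log2 change of -1.04 (limma adjusted p = 2.93e-07), while RPL40A, its near-identical copy, had a log2 change of 0.03 and was not called. After quantile normalization alone RPL40A was called (limma adjusted p = 0.0136), and its log2 change ranged from -0.13 to 0.26 over the alternatives. Values of the RPL40 pair are uncertain, since the handling of reads that match both is not recorded.

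Of 10 genes of ubiquitin ligases and the ligase partner MUB1, 1 rose and 1 fell, no larger a share than the 31.0% and 16.9% of all tested genes. UFD4 had 44.7 and 35.5 TPM in T3, against 26.3 and 32.8 TPM in T1 (log2 change 0.43, limma adjusted p = 0.0153; lost in 4 of 18 alternatives, T1 replicate A and T3 replicate A left out among them), and SSM4, a ligase of the endoplasmic reticulum, had 31.3 and 29.2 TPM in T3, against 37.6 and 43.5 TPM in T1 (log2 change -0.41, limma adjusted p = 0.00898; lost in 3, T1 replicate B and T3 replicate B left out among them). RSP5, the most abundant, had a log2 change of 0.21 and was not called, and UBR2 and MUB1, which act in the turnover of Rpn4, had -0.15 and -0.14, not called. Of 9 other deubiquitinating enzymes 3 rose and 1 fell, shares near those of all tested genes. UBP15 had a log2 change of 0.58 and UBP1, also the most abundant, one of -0.45. The rises of UBP2 and YUH1 were lost in 4 and 7 of 18 alternatives, without T1 replicate A and without T3 replicate A among them. None of the transcription factors HSF1, YAP1, PDR1 and PDR3, which act on the RPN4 gene, was called by limma (0 of 4, and 0 at an unadjusted p under 0.05), with log2 changes of -0.09 to 0.20.

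**Figure D5:**
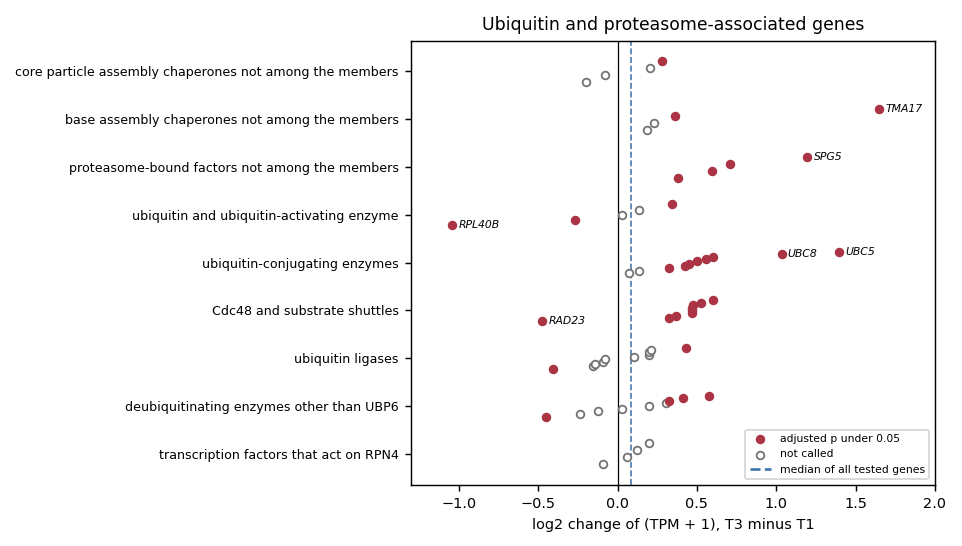
Log2 change of (TPM + 1) in T3 minus T1 for the 59 genes of 9 lists (rows), filled where the adjusted p was under 0.05 and with the median of all tested genes (0.09) dashed. TMA17 (1.65), UBC5 (1.40) and SPG5 (1.20) lie farthest right, and RPL40B (-1.04) farthest left.

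Changes were also set beside the PACE letters. Of the 27 particle genes whose promoters held them, 18 rose in T3 against T1 (median log2 change 0.28), and of the 6 without them 3 rose (median 0.27). Each of those 6 promoters matched with 1 mismatch allowed, as did 7.04% of the promoters outside the set. The split is thus between exact and near matches, and no particle gene lacked both. Within the core particle, 11 of 12 genes with the letters rose and both genes without them, PRE5 and PUP1, rose. Within the regulatory particle, 7 of 15 with and 1 of 4 without them rose. Of all tested genes 31.0% rose, with a median log2 change of 0.09. Outside the particles, ECM29 held the letters and was not called, and UMP1 alone of the genes without them rose. These are counts with no test.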

How the data were processed

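Poly(A) RNA of 6 libraries was measured by the authors. Per the submitters' processing notes, STAR 2.5.2b, featureCounts and Subread 1.5.2 were used with genome build R64. Settings for strand and multiply matching reads are not given in the sources used here, so a gene and an overlapping antisense transcript cannot be told apart. The deposited values are TPM, which sum to the same total in each library. An unnamed entry (4.74 to 5.83 TPM) was left out, and 6081 of 6400 named genes were matched to RefSeq R64. TPM multiplied by exonic length gave whole fragments (within 0.1) for 99.84 to 99.93% of open reading frames with at most 500 fragments.

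Values were transformed as log2(TPM + 1) for genes whose mean reached 1 TPM, so fold changes are on that scale. Group means were estimated from all 6 libraries together with limma 3.58.1 (R 4.3.3), using an abundance trend, with 3 residual degrees of freedom and 10.7 from the prior. Tests were two-sided, with Benjamini-Hochberg adjustment over all 6046 genes and a threshold of 0.05, and the procedure was checked on simulated data. Members and lists were chosen with earlier results of these data known. Genes given in every library were the 5 largest and 3 smallest changes per particle in T3 against T1, the most and least abundant, SEM1 and those outside the particles. From each list, the most abundant gene and the largest called rise and fall were named, and other genes only with their change. Python 3.11.15, pandas 2.3.3, NumPy 2.4.6 and matplotlib 3.10.9 were used. Alternatives changed the pseudocount, filter, scaling, length trend, variance model, replicate block or libraries used, 1 at a time; the closing section gives them. The medians of short and of long regulatory genes were added after seeing the data.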

Additional observations from a re-analysis of the deposited data

How the results depend on the processing

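Of the 22 rises in T3 against T1, 5 held in each of the 18 alternatives; 15 were lost after quantile normalization and 11 without T1 replicate A. Leaving out 1 library gave 11 to 25 rises and 0 falls, 8 to 13 for core and 2 to 10 for regulatory genes. The count of rises was 7 after quantile normalization (3 core, 3 regulatory) and 12 with totals without ribosomal protein genes (8 core, 3 regulatory). Falls numbered 1 (BLM10) under these, with median-of-ratios size factors and after removal of the length trend. Regulatory rises were 4 with no filter, 4 with median-of-ratios size factors and 5 without the abundance trend.

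The core median log2 change was 0.258 with median-of-ratios size factors, 0.129 after quantile normalization, 0.196 without ribosomal protein genes and 0.223 with the length trend removed; the regulatory median was 0.151, 0.078 and 0.088 under the first 3. Leaving out 1 library gave 0.295 to 0.389 for core and 0.163 to 0.324 for regulatory genes.

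In T2 against T1, rises numbered 5 with no filter and without the abundance trend, 6 after quantile normalization, and 4 to 12 when 1 library was left out; 1 fall appeared without ribosomal protein genes. In T3 against T2, rises numbered 0 with no filter, without the abundance trend and under each other scaling, and 0 to 1 with 1 library left out. Without T1 replicate A, 1 member passed for the difference of steps (0 to 1 over left-out libraries).

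Pathway rises were 18 without ribosomal protein genes and 19 to 29 with 1 library left out. Pathway falls were 3 with no filter, 12 without ribosomal protein genes, 9 under each other scaling and 9 with the length trend removed.

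The labels share replicate letters between groups but do not say that a letter marks a shared culture or day. Deviations from the group means correlated at 0.132 (T1 and T2), -0.0578 (T1 and T3) and -0.15 (T2 and T3). With a replicate block 21 members rose in T3 against T1, 7 in T2 against T1 and 0 in T3 against T2.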

Other observations

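The PACE letters were also found in 44 promoters outside the set. In 7 of them the site was the one of a neighbouring proteasome gene, read from the other side, and 4 promoters belonged to genes of the ubiquitin lists (CDC48, UBA1, UBI4 and YAP1). Apart from those 7, 36 genes were tested, the 4 included, and they held 32 distinct sites, since 9 of the 36 (PDI1 and CUZ1 among them) lie beside a second gene whose window holds the same site. Of the 36, 17 rose in T3 against T1 and 2 fell, beside 31.0% and 16.9% of all tested genes, with a median log2 change of 0.23 and no test of the difference. The genes named next were picked after their values were seen. YJL045W, which encodes a minor isozyme of succinate dehydrogenase and may share reads with SDH1, had 3.65 and 3.72 TPM in T1, then 5.96 and 6.84 TPM in T2, then 9.19 and 10.6 TPM in T3. It rose 2.32-fold (log2 change 1.21, SE 0.16, limma adjusted p = 2.81e-05). ACS1, an acetyl-CoA synthetase gene, had 21.1 and 21.3 TPM in T3, against 12.6 and 12.3 TPM in T1 (log2 change 0.73, SE 0.11, limma adjusted p = 9.77e-05). PDI1, which encodes protein disulfide isomerase, and CUZ1, whose product binds the proteasome and Cdc48, had log2 changes of 0.39 and 0.29. YCL042W, whose window holds the same site as that of PDI1, had the largest log2 change of the 36, 1.24 (SE 0.18, limma adjusted p = 6.28e-05). REB1, a general regulatory factor gene, had 18.6 and 16.6 TPM in T3, against 26.2 and 30.7 TPM in T1 and fell (log2 change -0.66, SE 0.12, limma adjusted p = 0.000354).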
